A study of Bos taurus with 8 samples.

Results

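The proteasome genes described here are those whose symbol on a bovine embryo array begins with PSMA to PSMG followed by a number. The rule used names and no measured value, and it found 79 probes for 47 symbols, of 43794 probes and 15227 symbols on the array. Of these, 77 probes and 46 symbols had signal above the negative controls on at least 4 of 8 arrays in a treatment and were kept, and the symbol left out was PSMB8. One match, PSMC3IP, is a recombination protein named after a proteasome subunit and not a subunit itself; its log2 ratio was 0.03 ± 0.14 (SD, n = 4 swap pairs).

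The proteasome degrades proteins that carry ubiquitin chains. Its core is a barrel in which rings of alpha subunits (PSMA genes) guard the entrance and rings of beta subunits (PSMB genes) hold the cutting sites. The cap, made of ATPases (PSMC) and other subunits (PSMD), recognises and unfolds substrates, whereas the PSME activators open the barrel without ubiquitin, and the core alone can degrade oxidised proteins. Under interferon the catalytic subunits PSMB6, PSMB7 and PSMB5 are replaced by PSMB9, PSMB10 and PSMB8, which gives the immunoproteasome.

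RNA came from pools of 10 in vitro produced bovine blastocysts, collected 196 hours after fertilization. The AAPH pools had 0.01 mM AAPH, a compound that releases peroxyl radicals, in the culture medium from day 3 to day 7, with a medium change on day 5, and the control pools had the same synthetic oviductal fluid without it. Each treatment had 4 pools, the RNA was amplified before labelling, and 8 two-colour arrays compared AAPH with control RNA, 4 in each dye orientation. The comparison asks how blastocyst transcripts differ after culture with a radical generator.

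Values are log2 ratios of AAPH over control with the SD over 4 swap pairs. A swap pair is an AAPH pool and a control pool hybridised on 2 arrays with the dyes exchanged; the labels do not name these pairs, which were found from the data. Pairs 1 and 2 lay on slide 26 and pairs 3 and 4 on slides 78 and 79. Pool levels are log2 signal after scaling between channels and can be compared between pools for 1 probe only. A gene is given by its brightest probe, and an adjusted p is from limma with Benjamini-Hochberg adjustment over 32119 probes. A lower signal from a pool could come from fewer cells of a type or from less RNA per cell, and these cannot be told apart.

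Some markers of trophectoderm and of inner cell mass were well detected. KRT8, IFNT, TFAP2C, POU5F1 and NANOG exceeded the negative controls on all 8 arrays, whichever RNA was read. Others of these lists lay nearer background: CDX2 exceeded it on 4 arrays for AAPH and 5 for control, SOX2 on 6 and 6, and SALL4 on 3 and 4. Probes above background numbered 15092 to 34183 per array for AAPH RNA and 15963 to 35411 for control RNA. The Cy5 channel of slides 78 and 79 had the fewest, with 55 to 60 of the 79 proteasome probes above background. Its background thresholds were 7.23 to 7.61 on the log2 scale, against 6.65 to 6.90 in the other channels. Of the fibroblast markers 9 of 10 were measured, and all 9 ratios were positive (median 0.75). Leukocyte markers had a median ratio of -0.01 over 8 measured of 10. PTPRC and CD3E were above background on 7 arrays for AAPH and 8 for control, and CD68 on 7 and 7. CD14 was so on 4 and 1, and CSF1R and ITGB2 on 0 arrays. The cumulus and granulosa markers, 7 measured of 9, had a median of 0.14. Of them, 2 were positive in 4 of 4 pairs, PTX3 at 1.10 ± 0.91 and TNFAIP6 at 0.85 ± 0.95. Some of these pairs lay near 0: PTX3 was at 0.09 in pair 4, and TNFAIP6 at 0.002 and 0.10 in pairs 2 and 4. TNFAIP6 was above background on 7 arrays for AAPH and 5 for control. The other measured markers were at 0.14 (HAS2, CYP19A1), 0.02 (INHA), 0.01 (PTGS2) and -0.09 (FSHR). Of the lineage markers, 9 of 12 for trophectoderm (median -0.07), 5 of 7 for inner cell mass (-0.12) and 3 of 7 for hypoblast (0.02) had negative ratios.

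No proteasome gene passed the test of AAPH against control after adjustment over all probes, where 0% of the array was called and the smallest adjusted p was 0.144. The median ratio over the 46 genes was -0.02, against 0.01 over 12397 genes, and 21 ratios were positive and 25 negative. The range ran from -0.49 for PSMB2 to 0.47 for PSME2. At an unadjusted p under 0.05 there were 7 of the 46 genes (15.2%), against 15% of all genes. Of these, 2 were higher in AAPH (4.35%, against 7.68% of all genes) and 5 were lower (10.9%, against 7.36%). The count was 3 without swap pair 2 (6.52%, against 11.7% of all genes), 11 on slide 26 alone (23.9%, against 11.1%) and 9 on slides 78 and 79 alone (19.6%, against 19.5%), where 5 of the 9 were higher. In every swap pair 5 genes were lower (10.9%, against 9.52% of all genes) and 2 were higher (4.35%, against 12.4%). Over the 77 kept probes, 12 had an unadjusted p under 0.05, against 13.6% of all kept probes, with 4 higher (array 5.71%) and 8 lower (array 7.85%). Of the genes above background on all 8 arrays in both treatments, 7 of 38 passed, 2 higher and 5 lower. Of all probes meeting that rule, 2734 of 13114 passed, 1292 higher and 1442 lower. Those probes were less bright, with a median level of 9.55 against 11.97 for the 38 genes. With all 4 swap pairs the share of genes was thus close to that of the array. The median ratio was -0.09 on slide 26 and 0.04 on slides 78 and 79. The largest 95% limit of any of the 46 ratios was 0.87 in size, so a change beyond that was outside every interval.

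**Figure D1:**
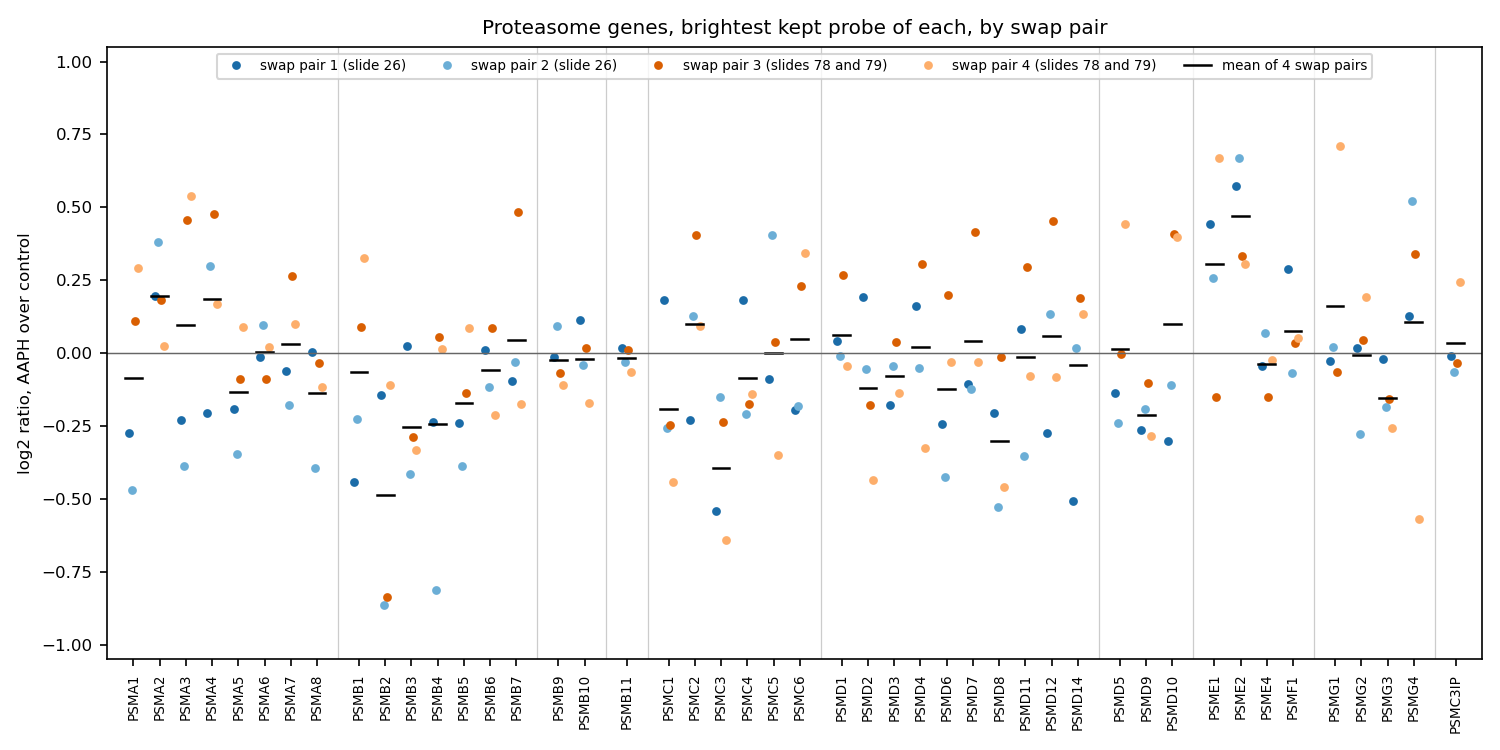
Log2 ratio of AAPH over control (vertical axis) for each proteasome gene (horizontal axis, ordered by role), with 1 point per swap pair and a bar at the mean. PSME2 has all 4 points above 0 and a mean of 0.47, PSMB2 has all 4 below 0 and a mean of -0.49, and most genes have points on both sides of 0.

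The activators held the gene of highest ratio. PSME2, the beta subunit of the interferon-inducible PA28 activator, had levels of 9.75, 10.19, 9.37 and 9.04 in AAPH pools 1 to 4 and of 9.17, 9.52, 9.04 and 8.74 in control pools 1 to 4. The AAPH pool was the higher of each pair, but the groups overlapped, since AAPH pool 4 lay below control pools 1 and 2. The pair ratios were 0.57, 0.67, 0.33 and 0.31. Their mean was 0.47 ± 0.18 (SD, n = 4), or 1.39-fold, with a 95% interval of 0.27 to 0.68 and an adjusted p of 0.172. All 8 single arrays gave a positive ratio, from 0.02 to 0.92. The mean was 0.62 on slide 26 and 0.32 on slides 78 and 79. With the swap pair as a replicate block over 8 arrays the adjusted p of PSME2 was 0.0413. With 8 single arrays, which count dye swaps of the same pools as replicates, it was 0.0166. With the other pairing of the arrays it was 0.0405. If the swap pairs found here are right, that other pairing averages arrays of different pools. Its averages within a slide group then share pools and are not independent replicates, here and below.

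PSME1, the alpha subunit of the same activator, varied more. Its levels were 9.45, 9.61, 8.81 and 9.03 in the AAPH pools and 9.01, 9.35, 8.96 and 8.36 in the control pools. AAPH was the higher in pairs 1, 2 and 4 and the lower in pair 3, and the groups overlapped. The mean ratio was 0.30 ± 0.35 (SD, n = 4), with a 95% interval of -0.02 to 0.63 and an adjusted p of 0.388, which became 0.0431 with the other pairing. PSME4, the nuclear PA200 activator, was at -0.04 ± 0.09 by its brightest probe, while its other probes gave 0.30 and -0.12. PSMF1, a proteasome inhibitor, was at 0.08 ± 0.15 and passed the background threshold on 7 AAPH and 6 control readings of the 8 arrays. PSME3, which encodes the gamma activator, was not analysed here.

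The median ratio of the fibroblast markers was positive in every pair, as PSME2 was, and 5 of the 9 measured markers were higher in AAPH in all 4 pairs. Their summed signal was 6096 to 36524 in AAPH pools and 4782 to 10507 in control pools, with median ratios of 1.46, 0.95, 0.65 and 0.23 in pairs 1 to 4. The leukocyte markers, summed, were 1060 to 1167 in AAPH pools and 1086 to 1308 in control pools. The part of the fibroblast markers in the PSME2 ratio was not tested.

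The immunoproteasome subunits stayed close to the negative controls in both treatments. PSMB8 passed the background threshold on 1 array for AAPH and 0 for control; its levels, not well above background, were 6.66, 6.82, 6.24 and 6.33 in AAPH pools and 6.68, 6.59, 6.55 and 6.55 in control pools. PSMB9 passed it on 6 arrays in each treatment, with a ratio of -0.02 ± 0.09. PSMB10 also passed it on 6 and 6, at -0.02 ± 0.12. Thus neither measured immunoproteasome subunit had a ratio whose SD was smaller than its distance from 0. Their constitutive counterparts PSMB5, PSMB6 and PSMB7 were at -0.17 ± 0.20, -0.06 ± 0.13 and 0.05 ± 0.30. PSMB11, the thymus subunit, was at -0.02 ± 0.04.

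**Figure D2:**
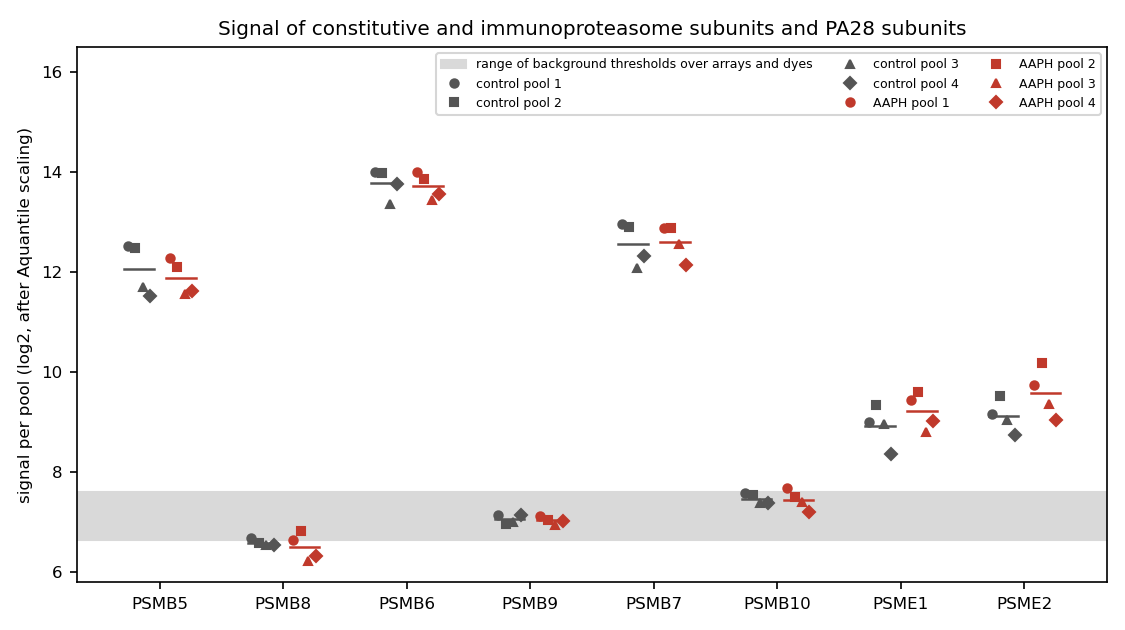
Log2 signal per pool (vertical axis) of the constitutive subunits, the immunoproteasome subunits that replace them and both PA28 subunits (horizontal axis), with 4 control pools in grey, 4 AAPH pools in red, lines at the means and a grey band for the range of background thresholds, 6.65 to 7.61. Pools are to be compared within a gene only: PSMB9 lies within the band in all pools, PSMB8 lies in or below it, and the PSME2 means are 9.12 in control and 9.59 in AAPH.

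Of the 7 constitutive beta subunits 6 had a negative ratio, against 47.9% of all genes, and the median was -0.17. PSMB7 was the positive one by its brightest probe, while its other probes gave -0.13 and -0.12. With the mean over all probes of a gene all 7 were negative, with a median of -0.11, against 49% of all genes. PSMB2, a structural beta subunit, had levels of 13.39, 12.40, 13.01 and 12.89 in AAPH pools and of 13.53, 13.26, 13.84 and 12.99 in control pools. AAPH was lower in every pair, by little in pairs 1 and 4 and by more in pairs 2 and 3, and the groups overlapped. The ratios were -0.14, -0.87, -0.84 and -0.11, with a mean of -0.49 ± 0.42 (SD, n = 4) and an adjusted p of 0.292, which became 0.0185 with the other pairing. PSMB3, another structural subunit, was at -0.25 ± 0.19 and lower in pairs 2, 3 and 4 (adjusted p = 0.313). The beta list moved with slide and with 1 pair: its median was -0.31 on slide 26 and -0.03 on slides 78 and 79, where 4 of 7 were negative, and it was -0.06 without swap pair 2. With median centring all 7 were negative, with a median of -0.27, against 49.4% of all genes negative in that setting. Median centring moves all probes of an array by the same amount, whatever their brightness. Median levels were 12.59 for this list, 12.53 for the alpha ring, 11.09 for the cap ATPases and 11.25 for the other cap subunits, against 7.95 over all genes. No set of like brightness was compared in that setting, here and below.

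The alpha ring had a median of 0.02 over 8 genes, 5 positive and 3 negative. The median turned to -0.08 with median centring, where 6 of 8 were negative, and to -0.09 with the mean over all probes of a gene. It was -0.16 on slide 26 and 0.14 on slides 78 and 79, and -0.04 and -0.03 without swap pair 3 or 4. PSMA2, a subunit of the ring, was at 14.53, 14.60, 14.76 and 14.72 in AAPH pools and 14.34, 14.22, 14.58 and 14.70 in control pools. AAPH was higher in every pair, though by only 0.03 in pair 4, and the groups overlapped. The mean was 0.20 ± 0.15 (SD, n = 4; adjusted p = 0.353). The 6 kept probes of PSMA2 ran from -0.05 to 0.31. PSMA8, the testis form of an alpha subunit, was at -0.14 ± 0.18, close to background, with 6 arrays above it in each treatment. PSMA5, chosen after its values were seen, lay beside it at -0.13 ± 0.18.

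Among the cap ATPases, which thread substrates into the core, 3 of 6 ratios were positive and the median was -0.04. All 6 were negative with median centring, where the median was -0.15, and without swap pair 3, where it was -0.03. PSMC3 had levels of 9.34, 8.27, 8.05 and 7.87 in AAPH pools and of 9.88, 8.42, 8.29 and 8.51 in control pools. AAPH was lower in every pair, but AAPH pool 1 lay above control pools 2, 3 and 4. The mean was -0.39 ± 0.24 (SD, n = 4; adjusted p = 0.232), and the second PSMC3 probe gave -0.03. The adjusted p of PSMC3 was 0.0343 with 8 single arrays and 0.0235 with the other pairing. PSMC2 had the highest ratio of the ATPases, 0.10 ± 0.26.

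Of the 10 other cap subunits 4 were positive and 6 negative, with a median of -0.03. With median centring in place of loess all 10 were negative (median -0.07), as they were without swap pair 3 (-0.11), while on slides 78 and 79 alone 4 were negative (0.10). PSMD8, a lid subunit, had levels of 11.24, 10.71, 10.64 and 10.46 in AAPH pools and 11.45, 11.24, 10.66 and 10.92 in control pools. Pairs 2 and 4 carried most of the difference, and the groups overlapped. The ratios of PSMD8 were -0.21, -0.53, -0.01 and -0.46, and their mean was -0.30 ± 0.24 (SD, n = 4; adjusted p = 0.30), which became 0.0431 with the other pairing. PSMD1, a scaffold of the base, had the highest ratio, 0.06 ± 0.14, and its second probe was above background on 0 arrays. PSMD13 was not analysed here.

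Assembly chaperones bind subunits before the particle is complete and are absent from it afterwards. PSMD9, a chaperone of the cap base, was at 10.03, 9.98, 10.33 and 9.96 in AAPH pools and at 10.29, 10.17, 10.44 and 10.24 in control pools. AAPH was lower in every pair and the groups overlapped only through AAPH pool 3. The ratios of PSMD9 spread little, with a mean of -0.21 ± 0.08 (SD, n = 4; adjusted p = 0.274). PSMD10, a base chaperone known as gankyrin, was at 0.10 ± 0.36. Of the core chaperones, PSMG3 was lower in every pair at -0.15 ± 0.10 and lay close to background. PSMG1 was at 0.16 ± 0.37, and POMP, the maturation factor of the core, which the name rule does not match, was at 0.14 ± 0.27.

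Probes of the same gene often lay on different sides of 0. Of 19 genes with several kept probes, 8 had all probes on 1 side of 0 and 11 had probes on both. In 10 of the 19 the remaining probes had a median with the sign of the brightest one. PSME1, PSME2, PSMB2, PSMB3, PSMD8 and PSMD9 each had only 1 probe, so their ratios could not be compared between probes.

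**Figure D3:**
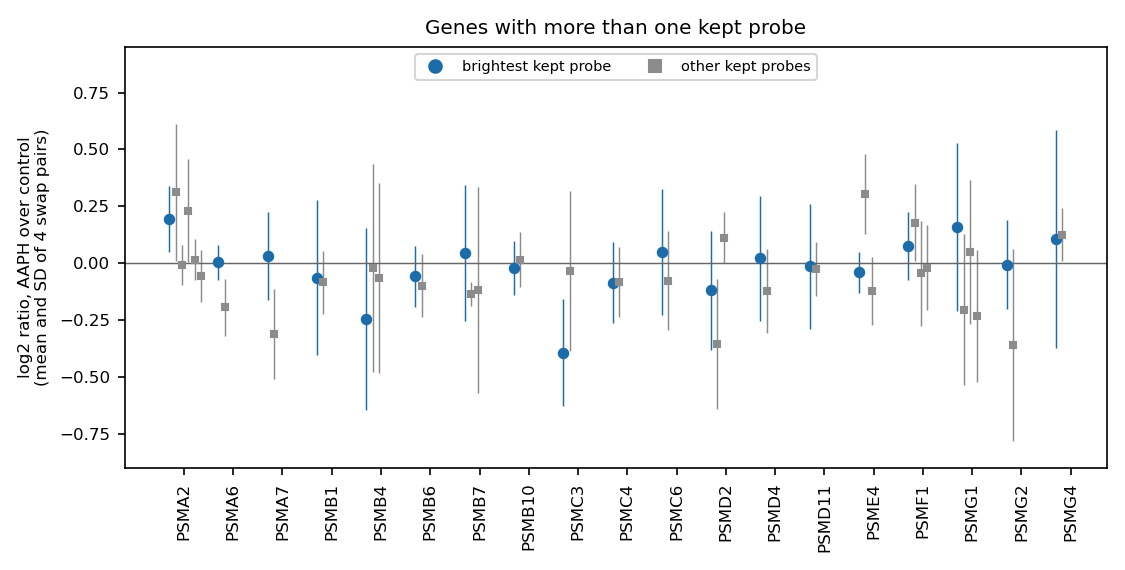
Log2 ratio of AAPH over control (vertical axis) for genes with several kept probes (horizontal axis), as the mean and SD over 4 swap pairs, with circles for the brightest probe and squares for the others. The PSMC3 probes lie at -0.39 and -0.03, and the brightest PSME4 probe at -0.04 lies between probes at 0.30 and -0.12.

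Proteasome levels varied between pools of the same treatment. The control pools spanned a median of 0.734 on the log2 scale over the 46 genes, from 0.052 for PSME4 to 1.86 for PSMC4, against a median of 0.452 over all genes. The proteasome probes were also the brighter set, with a median level of 11.38 against 7.95, and no set of like brightness was compared. The median absolute ratio was 0.0849 for the proteasome genes and 0.0946 over all genes. In 0 of 46 genes did the AAPH and control pools stand apart, against 1.91% of all genes. The spread followed the pools: the median proteasome level was 12.00, 11.71, 11.18 and 10.96 in control pools 1 to 4 and 11.78, 11.46, 11.36 and 11.13 in AAPH pools 1 to 4. The median of all kept probes lay between 7.42 and 7.46, but the scaling of the levels holds that median nearly equal by construction. The range of the control pools includes the difference between slides, which the ratio within a pair leaves out. Pools on slide 26 were thus the higher in both treatments, and slide and pool cannot be told apart here.

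Ratios of some genes lay on different sides of 0 on the different slides, although 0% of the array was called for a slide difference after adjustment. At an unadjusted p under 0.05 the slide difference was found for 8 of 46 genes (17.4%), against 12.4% of all genes. In 7 genes (15.2%) both pairs were lower in AAPH on slide 26 and both higher on slides 78 and 79, against 7.89% of all genes. The reverse pattern held for 0 genes, against 6.77%. These 7 were PSMA1, PSMA3, PSMA7, PSMB1, PSMB4, PSMC6 and PSMD10, of which all but PSMD10 were chosen after their values were seen. Over the 77 kept probes the pattern held for 10 and the reverse for 3, against 2465 and 2209 of 32119. The second PSMA7 probe was lower in every pair and that of PSMB1 was at -0.02 in pair 3, while the other probes of PSMB4 and PSMC6 held the pattern. PSMA3, an alpha subunit, was at -0.23 and -0.39 in pairs 1 and 2 and at 0.46 and 0.54 in pairs 3 and 4. PSMB1, a structural beta subunit, averaged -0.33 on slide 26 and 0.21 on slides 78 and 79. PSMD10 averaged -0.21 and 0.40 there. The adjusted p of the slide difference was 0.422 or higher in these 7 genes.

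**Figure D4:**
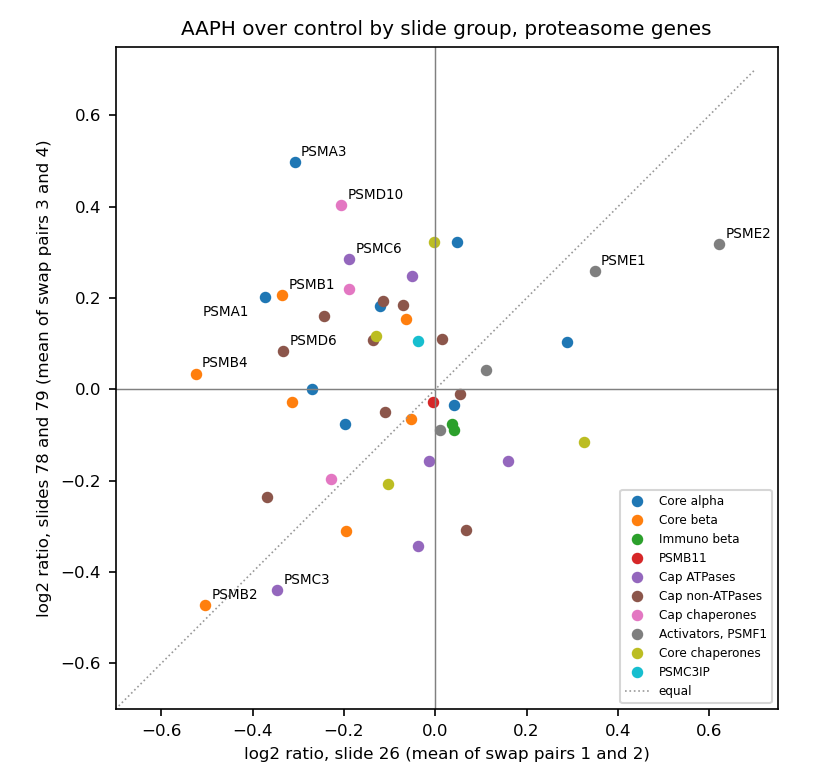
Mean log2 ratio of AAPH over control on slides 78 and 79 (vertical axis) against slide 26 (horizontal axis), with 1 point per proteasome gene coloured by role and a dotted line where both are equal. PSMA3 lies at -0.31 and 0.50, whereas PSME2 lies at 0.62 and 0.32, above 0 on both axes.

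Genes that act with the proteasome were read from lists. Of 15 proteasome-bound proteins 11 were positive, with a median of 0.11, and 3 had an unadjusted p under 0.05, all higher in AAPH, where 7.68% of all genes were. UBQLN2, a shuttle factor for ubiquitinated proteins, had the highest ratio at 0.43 ± 0.44 (adjusted p = 0.348), and ADRM1, a ubiquitin receptor of the cap, the lowest at -0.10 ± 0.36. SHFM1, a small cap subunit named outside the PSM series, was chosen after its values were seen. It was at 0.31 ± 0.09, higher in 4 of 4 pairs (adjusted p = 0.189). Of 10 ubiquitin, activating enzyme and VCP complex genes 3 were positive, from -0.19 for NPLOC4, a VCP cofactor, to 0.22 for UBA6, a ubiquitin-activating enzyme.

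Of 14 genes for transcriptional control of the proteasome 8 were positive, with a median of 0.02. MAFG, a partner of the NFE2L factors, was the highest at 0.30 ± 0.15 (adjusted p = 0.241) and NFYA, a CCAAT-binding subunit, the lowest at -0.27 ± 0.45. NFE2L1 and NFE2L2, which drive proteasome genes after proteasome inhibition and oxidative stress, were both at 0.11, with SDs of 0.15 and 0.33. Of 10 measured antigen processing genes 6 were positive, with a median of 0.04. TAPBP, the chaperone tapasin, had the highest ratio, 0.85 ± 0.56, with pairs at 1.30, 1.36, 0.35 and 0.37 (adjusted p = 0.222, and 0.0422 with the replicate block). PDIA3, a disulfide isomerase, had the lowest, -0.16 ± 0.18.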

How the data were processed

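The deposited scanner files give, per the file headers, each spot's foreground and background intensity (linear) for Cy3 and Cy5; 14 statistics lines per file were left out. The authors also deposited a table of log2 ratios, for which the submitters' processing notes name limma. Compared with the scanner ratios, it was on a log2 scale and ran as AAPH over control. Its column medians for arrays 1 to 8 were -0.0135, -0.00863, 0.0117, 0.00944, -0.0152, 0.00799, -0.0188 and -0.0197, and its normalization and centring remain unknown.

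In R 4.3.3 with limma 3.58.1, intensities were corrected by normexp (offset 50) and normalized by loess within arrays, with control spots at weight 0. Probes were kept when above the negative controls' median by 3 MADs on at least 4 of 8 arrays in either treatment. Levels came from Aquantile scaling. The number of arrays limits the precision. On 3 simulated data sets of 32119 probes for AAPH over control, 1.37% to 7.25% of probes changed by 0.5 on the log2 scale were called, 64.3% to 82.1% of those changed by 1 and 97% to 100% of those changed by 2, with 1 to 5 false calls. The simulation added array noise to a pool spread that already held it, so these shares may be too low. Only 200 probes were changed in each simulated set, and the shares called depend on that number. An unadjusted p under 0.05 was found for 5.19% to 5.3% of unchanged simulated probes, against 13.6% of all kept probes in the data. The simulated setting thus differs from the data.

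Arrays of opposite dye orientation were matched by how closely their departures from the mean of their orientation correlated. Of 24 matchings the best had correlations of 0.146 to 0.565, while the 12 other pairs had -0.344 to 0.0484. The matching was chosen by these correlations, and departures cancel within an orientation. Lower values in the other pairs thus follow in part from the choice and do not test it. Averaging the arrays that depart most alike also keeps the spread between pairs wide, which can lower the number of calls. Swap pairs were averaged (n = 4) and tested against 0 with lmFit and eBayes. The labels do not say whether pools came from separate fertilization runs, and a p-value here reflects only how these pools vary.

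Symbols came from an old platform annotation: 21790 probes had 1 symbol, 0 several and 22004 none. All 47 proteasome symbols match RefSeq symbols. Coordinates and sequences are not used here. Named genes were the immunoproteasome subunits and those they replace, the activators and PSMF1, in each list of subunits and chaperones the highest, the lowest and any with an unadjusted p under 0.05, and in each other pathway list the highest and the lowest only. Marker genes named with ratios lie outside the rule and were chosen after their values were seen. Members and lists were chosen with earlier results of these data known.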

Additional observations from a re-analysis of the deposited data

Results flagged for a closer look

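PSMG1, a chaperone of core assembly, had a log2 ratio of 0.71 in swap pair 4, far from the other pairs, which lay between -0.06 and 0.02. It was the 1 case found among 40 results examined for a distant pair, where chance gives about 2. The other PSMG1 probes had pair 4 ratios of -0.04, 0.52 and 0.17.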

How the results depend on the processing

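The array-wide count of called probes, 0 with 4 averaged swap pairs, was 315 with the swap pair as a replicate block over 8 arrays. It was 935 with 8 single arrays and a dye term, where dye swaps of the same pools count as replicates. With the other pairing within slides, whose averages share pools if the swap pairs found here are right, it was 1079. It was 0 with each swap pair left out in turn. The count for a slide difference was 0 and became 3249 with the other pairing. At an unadjusted p under 0.05, 4353 probes passed in the averaged fit, 2562 with trend and robust variances. The 7 proteasome genes at an unadjusted p under 0.05 became 11 on slide 26 alone (23.9%, against 11.1% of all genes), 9 on slides 78 and 79 alone (19.6%, against 19.5%), and 3 to 8 with each swap pair left out (3 without pair 2, 6.52% against 11.7%). The median ratio of -0.02 became -0.0804 with median centring, -0.0877 on slide 26 alone, 0.0384 on slides 78 and 79 alone, -0.0534 with the mean over all probes of a gene, 0.00106 with signal required on all 8 arrays of a treatment, and -0.0637 to -0.0126 with a swap pair left out. The cause of these shifts was not tested. Of 21 named proteasome genes 13 kept their sign in every setting run. PSMB7, PSMB9, PSMB10, PSMC2, PSMD1, PSMD10, PSME4 and PSMG1 did not. Over 18 alternatives PSME2 ranged from 0.319 to 0.622, with adjusted p from 0.0166 to 0.544. For PSMB8, not well above background, a difference was not detectable at this signal.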

Other observations

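B2M, the light chain of MHC class I and chosen after its values were seen, had a log2 ratio of 0.51 ± 0.28 (SD, n = 4; limma, adjusted p = 0.203) and was higher in 4 of 4 swap pairs. TAP1, the peptide transporter subunit, was at -0.02 ± 0.19 and passed the background threshold on 2 arrays for AAPH and 5 for control.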
